A study of Mus musculus with 3 samples.

Results

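The wells described here are those of the day 2 library in which mitochondrially encoded RNA made up at least 40% of all counts, ordered by how much Ino80 RNA they held. They number 489 of the 3394 wells of the 3 libraries used here. Of 1063 day 2 wells, 1059 had at least 1000 counts and 300 detected genes, and 592 of these (55.9%) reached the 40% limit. Another 43 wells were dropped for at least 1000 CPM of the macrophage genes Lyz2, C1qa, C1qb and C1qc together, and 62 for as much of the fibroblast genes Dcn, Col1a1, Col3a1 and Lum. Both limits were passed by 2 wells. CPM stands for counts per 1000000 counts of nuclear-encoded mouse genes. The 489 wells were divided by Ino80 CPM into tertiles, a lower, a middle and an upper group of 163 wells each, and the lower and upper tertiles were compared.

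The series profiled single heart cells of tamoxifen-treated mice in nanowells, with 1 library each after 1, 2 and 3 days. Its labels do not agree on the genotype. The title names Myh6-MCM with Ino80fl/fl, a floxed Ino80 gene, whereas the day 2 label is D2_INO80_OE and the design text speaks of Ino80 being induced, and the treatment is spelled tarmoxifen. All 489 wells carry the same label: heart, adult cardiomyocyte, D2_INO80_OE, tarmoxifen, day 2. Myh6-MCM is a tamoxifen-dependent Cre recombinase under the cardiomyocyte myosin promoter, so recombination is directed to cardiomyocytes. The sources used here do not give the age, sex or number of the mice. Day 1 wells (D1_INO80_OE) serve below for a side-by-side reading, while the day 3 library carries both D3_INO80_OE and D3_Ctrl with no assignment of wells to either and is used only for counts of wells.

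INO80 is the ATPase and scaffold of a chromatin remodelling complex of the same name, which slides nucleosomes, edits their histone variants and takes part in transcription, replication and DNA repair. Adult cardiomyocytes are densely packed with mitochondria, and much of their remaining RNA encodes sarcomere proteins and subunits of the respiratory chain. A high mitochondrial share is therefore usual in intact cardiomyocytes, although leaking cells can show one too. Gene-level counts do not tell transcripts of an added Ino80 copy from those of the endogenous gene.

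Ventricular cardiomyocyte markers were high in every well, as the cell type label has it. All 12 ventricular cardiomyocyte markers were measured, and their summed level was never under 73619 CPM in a well, with medians of 121541, 124544 and 129167 CPM in the lower, middle and upper tertile. Endothelial markers, which the rule did not use, had medians of 422, 422 and 415 CPM over 10 genes. Macrophage markers had medians of 35.1, 25.2 and 34.8 CPM, a low level that the rule itself set by dropping wells on 4 of them. The whole day 2 table held 452070922 counts. The tertiles held 35622500, 43752600 and 33528200 nuclear counts, and single wells between 15048 and 847844. Well barcodes were shared by days 1 and 2 in 278 cases, by days 1 and 3 in 268 and by days 2 and 3 in 247.

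Ino80 (mm10 chromosome 2, 119373042 to 119477687) was an abundant transcript in nearly every well. Per-well Ino80 ran from 962 through a median of 4981 to 5896 CPM in the lower tertile. It ran from 5909 through 6799 to 7526 CPM in the middle tertile, and from 7532 through 8859 to 17296 CPM in the upper tertile. The tertiles were chosen by these values, which are a description only: the medians of the outer tertiles lay 1.78-fold apart, and neighbouring tertiles meet at their limits without a gap. Only 6 wells were under 2000 CPM, and the well with the fewest Ino80 counts still had 84. The comparison is thus one of high with higher Ino80, not of wells with and without it. The lowest mitochondrial share in the set was 40.1%, and the highest just outside it 39.96%. The marker sums nearest the limits were 991 and 1050 CPM for the macrophage genes and 987 and 1041 CPM for the fibroblast genes.

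**Figure D1:**
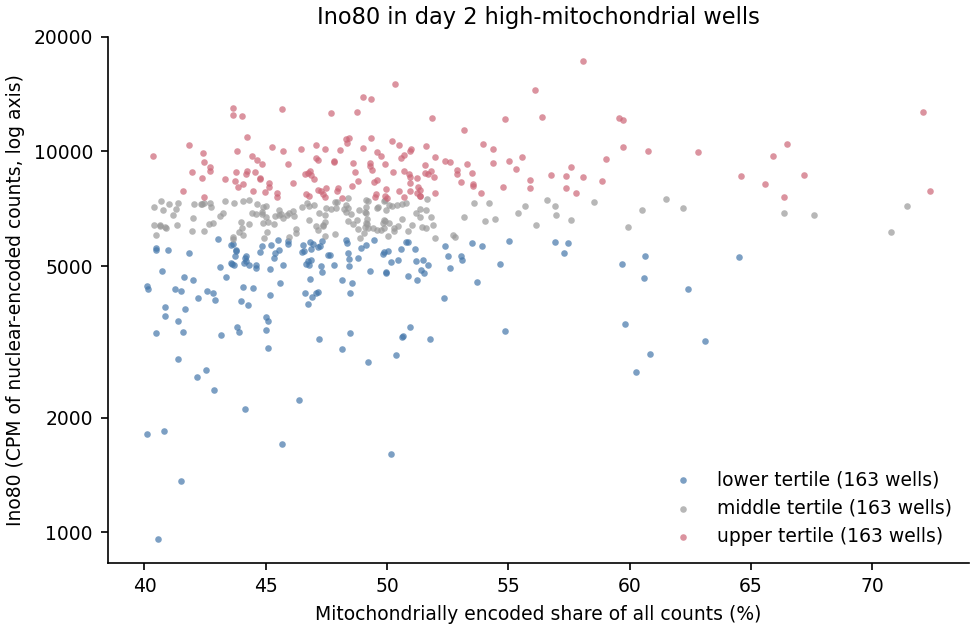
Ino80 CPM of each of the 489 wells (log axis) against the mitochondrially encoded share of all its counts, coloured by Ino80 tertile; each point is a well. The tertiles meet at 5896 and 7532 CPM, and wells of every tertile spread over most of the range of mitochondrial share.

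The mitochondrial share moved with Ino80. Its median was 46.8% in the lower, 47.9% in the middle and 49.6% in the upper tertile, with ranges of 40.1% to 64.5%, 40.4% to 71.4% and 40.3% to 72.4% that overlap almost wholly. Over the 489 wells, Spearman's rho of Ino80 CPM with the mitochondrial share was 0.24. In quartiles of wells by that share, median Ino80 was 6193, 6565, 6915 and 7499 CPM from the lowest quartile to the highest. Depth did not go along: rho with nuclear counts was -0.01, and the median well had 3795, 3709 and 3736 detected genes in the lower, middle and upper tertile. Every correlation over wells given here is a description of 489 wells of 1 library, which share its preparation and sequencing.

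With 1 library there are no replicates, so no test and no p-value is given. Intervals are exact 95% limits that cover counting error only. They treat every count as a separate read, because it is unknown whether molecular identifiers were used. Counts were summed over the 163 wells of each tertile. A list or gene said to be higher or lower was so in these summed counts, and since the same contrast set the tertiles, the values describe them. Among 6806 genes with a mean of at least 10 CPM over the outer tertiles, 2228 (32.7%) were at least 1.5-fold apart, 1343 (19.7%) of them higher and 885 (13%) lower in the upper tertile. The median gene had a log2 ratio of 0.08. At a 2-fold limit 910 genes (13.4%) were apart, 539 (7.92%) higher and 371 (5.45%) lower. The split depends on the scaling: with all mouse genes in the total it was 655 higher and 602 lower, and centred on the median gene 1127 and 1043. Centred within deciles of exonic length it was 1067 and 1074, a balance that centring itself brings about.

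How many genes were apart followed abundance closely. From 10 to 20 CPM, where the median gene had a count in 21.8% of wells, 48.5% of 1966 genes were at least 1.5-fold apart. The share was 38.1% of 2310 genes from 20 to 50 CPM, 23.3% of 1186 from 50 to 100 CPM, 13.2% of 672 from 100 to 200 CPM and 5.29% of 548 from 200 to 1000 CPM. Of the 124 genes at 1000 CPM or more, Ino80 was the only one apart (0.806%). Apart from Ino80, the most abundant RNAs thus lay within 1.5-fold between the outer tertiles, and most genes past that limit had counts in a minority of wells.

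**Figure D2:**
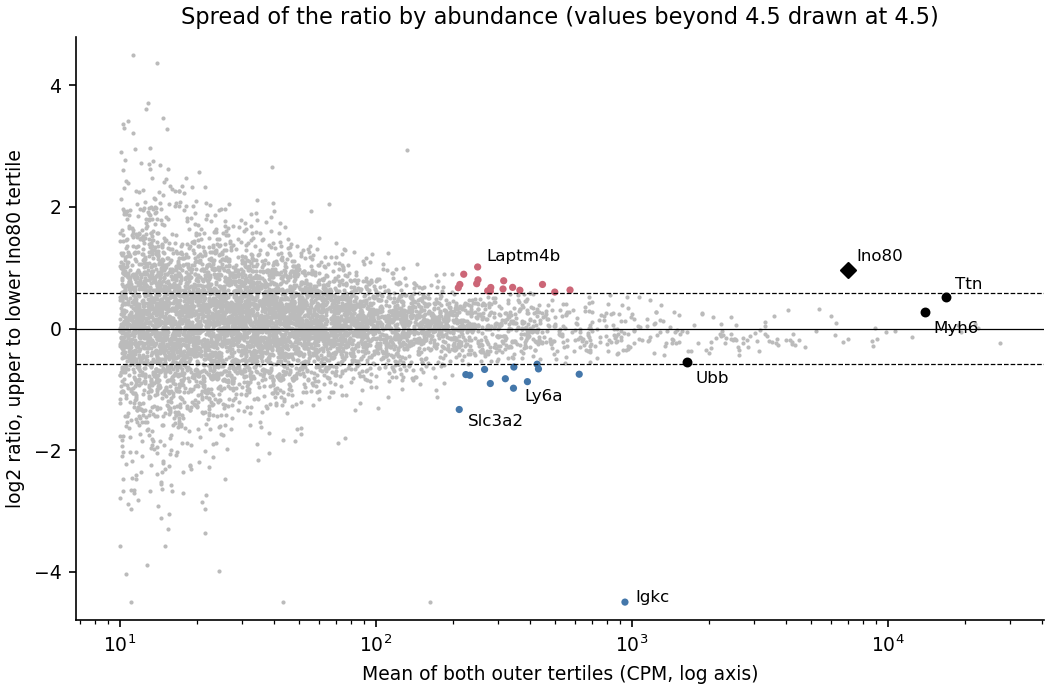
Log2 ratio of upper to lower Ino80 tertile against mean CPM (log axis) for genes at 10 CPM or more with counts in both tertiles; each point is a gene, and dashed lines mark 1.5-fold. Coloured points are genes from 200 to 1000 CPM past 1.5-fold, 16 above and 13 below; the spread narrows with abundance, and Ino80 (diamond) stands alone past the line above 1000 CPM.

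The genes from 200 to 1000 CPM that lay past 1.5-fold are named here because their counts rest on many wells; they were chosen after their values were seen. The 16 higher ones (2.92% of the 548) were Laptm4b, Dsg2, Vegfa, Tgoln1, Fitm2, Wnk1, Mrpl45, Sspn, Rab12, Il6st, Ptpn11, Hba-a1, Acsl1, Usp2, Sf3b2 and Kif1b. Laptm4b, a lysosomal membrane protein, had 165 CPM in the lower, 248 in the middle and 334 in the upper tertile (log2 ratio 1.01, interval 0.97 to 1.06). Its per-well values ran from 0 through a median of 40.3 to 1380 CPM in the lower tertile and from 0 through 140 to 2527 CPM in the upper, so single wells of both tertiles overlap widely. Dsg2, a desmosomal cadherin of the intercalated disc, had 154, 184 and 286 CPM. Vegfa, the angiogenic growth factor that cardiomyocytes supply to capillaries, had 183, 232 and 318 CPM. Il6st, the shared receptor subunit gp130 of the interleukin 6 family, had 162, 211 and 258 CPM. Acsl1, which activates long-chain fatty acids for oxidation, had 286, 378 and 443 CPM. The haemoglobin gene Hba-a1 stands apart in this group: 1 well gave 52.8% of its lower tertile counts and 1 well 33.5% of those of the upper tertile.

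The 13 lower ones (2.37%) were Slc3a2, Ly6a, Hadh, Ifitm3, Gpihbp1, Cdc42, Aamdc, Ly6c1, Timm8b, Rbx1, Fkbp3, Map1lc3b and Igkc. Slc3a2, the heavy chain of the heteromeric amino acid transporters, had 303, 169 and 120 CPM from the lower to the upper tertile (log2 ratio -1.33, interval -1.38 to -1.28). Its per-well median was 83.3 CPM in the lower and 16.2 CPM in the upper tertile, with highest wells of 2620 and 1329 CPM. Rbx1, the RING subunit of cullin ubiquitin ligases, had 529, 432 and 334 CPM, and Map1lc3b, a component of autophagosome membranes, had 512, 422 and 341 CPM. Ly6a, Ly6c1 and Gpihbp1, which capillary endothelium expresses, were among them, with Ly6a at 457, 401 and 232 CPM and Gpihbp1 at 409, 456 and 231 CPM. The values of 2 genes rest on 1 well. For Igkc, an immunoglobulin light chain of plasma cells, 99.7% of the lower tertile counts came from 1 well at 252580 CPM. For Hadh, a mitochondrial beta-oxidation enzyme, 48.0% came from 1 well, and its per-well median was 138 CPM in the lower and 160 CPM in the upper tertile, opposite to the summed counts.

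Genes followed Ino80 across wells only loosely. Among 2393 genes at 50 CPM or more, the 5 with the highest Spearman's rho with Ino80 CPM over the 489 wells were Ttn (0.39), Myh6 (0.34), Ryr2 (0.27), Mybpc3 (0.27) and Ckm (0.26). Ttn, the giant spring of the sarcomere, ran from 2583 through a median of 12065 to 37530 CPM in the lower tertile and from 5473 through 19174 to 44265 CPM in the upper. Its summed level was 13914, 15418 and 19854 CPM (log2 ratio 0.51, interval 0.51 to 0.52). Myh6, the adult ventricular myosin heavy chain of the mouse, had per-well medians of 12118, 13934 and 14489 CPM and lowest wells of 3651 CPM in the lower and 8593 CPM in the upper tertile. Ryr2, the calcium release channel of the sarcoplasmic reticulum, had per-well medians of 784, 1064 and 1305 CPM. Mybpc3, the cardiac myosin binding protein C, had summed levels of 3647, 3978 and 4504 CPM, and Ckm, the muscle creatine kinase, 1399, 1490 and 1640 CPM. In each of the 5 genes the middle tertile lay between the outer tertiles, and the wells of the outer tertiles overlapped over most of their range.

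The 5 genes with the lowest rho were Usmg5 (-0.36), Cryab (-0.34), Atp5j (-0.30), Cox6c (-0.29) and Ubb (-0.28). Usmg5 and Atp5j encode subunits of the ATP synthase and Cox6c one of cytochrome c oxidase. Usmg5 ran from 374 through a median of 1356 to 3628 CPM in the lower tertile and from 218 through 1035 to 2144 CPM in the upper (log2 ratio of summed counts -0.40, interval -0.42 to -0.38). Atp5j had per-well medians of 2813, 2426 and 2154 CPM, and Cox6c 3968, 3603 and 3235 CPM. Cryab, a small heat shock protein that guards the Z-disc, had per-well medians of 2152, 1846 and 1516 CPM. Ubb, a polyubiquitin gene, had the widest gap of the 5, with summed levels of 1945, 1722 and 1328 CPM (log2 ratio -0.55, interval -0.57 to -0.53). Genes of this kind can have near-identical processed copies elsewhere in the genome, and the sources used here do not give how reads with several matches were counted.

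These 10 correlations kept their sign within each quartile of wells by mitochondrial share. The 10 genes were chosen by rho over these same wells, so a kept sign is partly built in and is no separate check. For Ttn rho lay between 0.20 and 0.52 in the quartiles, for Usmg5 between -0.51 and -0.11, and for Cryab between -0.35 and -0.27. The correlation with the mitochondrial share itself lay between -0.32, for Ubb, and 0.22, for Ttn. That with nuclear counts stayed between -0.12 and 0.10 for all 10.

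**Figure D3:**
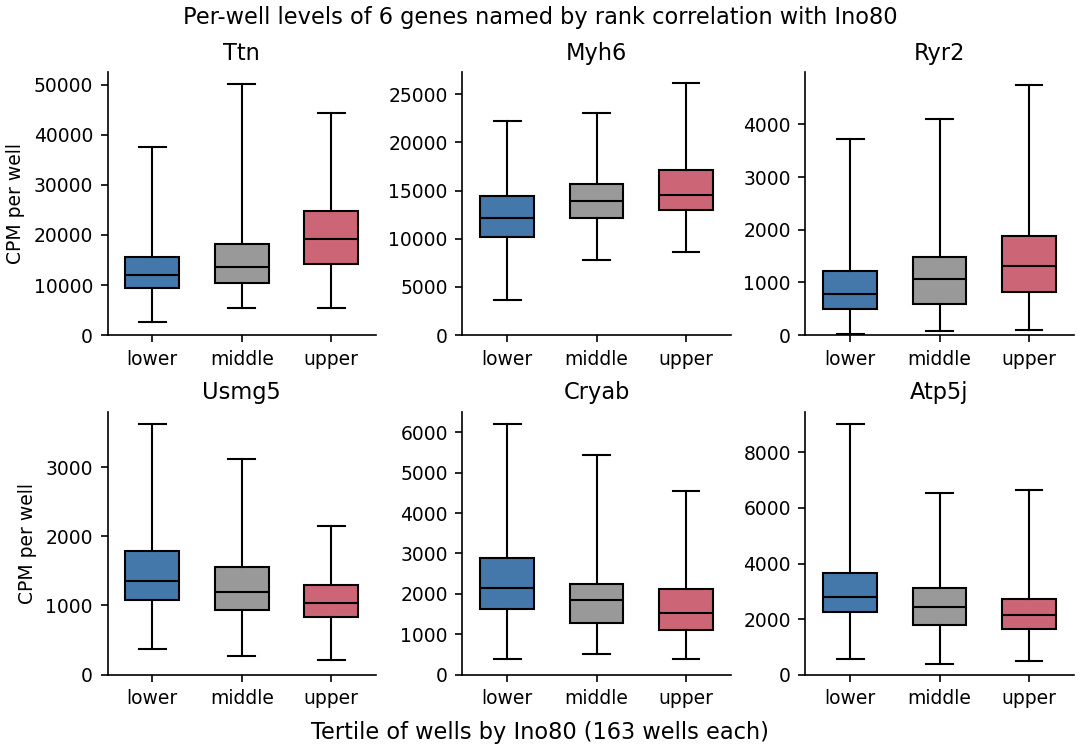
Per-well CPM of 6 of the 10 genes named by rank correlation with Ino80, in the lower, middle and upper tertile (163 wells each); boxes span the quartiles with the median as a line, and whiskers reach the lowest and highest well. Medians of Ttn, Myh6 and Ryr2 step up and those of Usmg5, Cryab and Atp5j step down across the tertiles, while the boxes and whiskers overlap.

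Exonic length ordered the ratios across genes. Among 2529 genes at 50 CPM or more with an annotated length, the median log2 ratio went from -0.20 in the shortest decile, with a median exonic length of 1.03 kb, through 0.05 in the fifth decile to 0.25 in the longest decile, with 14.6 kb. In the shortest decile 22.9% of genes were above 0, and in the longest 72.2%. Spearman's rho of the log2 ratio with exonic length was 0.34 across these genes, which are not independent replicates. Ino80 itself has 6.80 kb of exons and falls in the eighth decile, and Ttn, at 117 kb, is the longest of these genes. At 200 CPM or more, the medians of the shortest and longest deciles were -0.21 and 0.27. RNA integrity of single wells was not measured, so its part in this order was not tested.

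**Figure D4:**
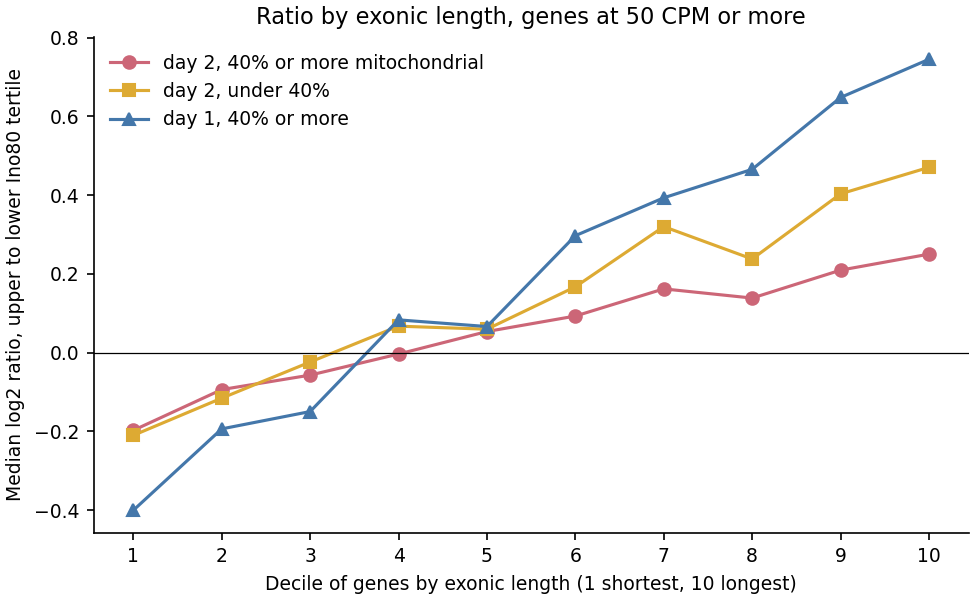
Median log2 ratio of upper to lower Ino80 tertile by decile of exonic length, for genes at 50 CPM or more, in the 489 day 2 wells (circles), in day 2 wells under 40% mitochondrial counts (squares) and in day 1 wells at 40% or more (triangles). In all 3 sets the shortest decile is below 0 and the longest above it, from -0.20 to 0.25 in the 489 wells and from -0.40 to 0.74 on day 1.

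Gene lists are set below against 8535 genes at 5 CPM or more, the limit used for list members, of which 38.5% lay 1.5-fold or more apart, 22.4% upward and 16.1% downward in the upper tertile. Their median log2 ratio was 0.08, and 55.5% were above 0. The lists were chosen with earlier results of these data known and hold genes of unlike abundance, so counts in sparse lists carry the wide spread described above.

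Most nuclear-encoded genes of respiratory complexes I and III to V were slightly lower in the upper tertile. Of 36 listed genes of complex I, none was 1.5-fold apart, 31 were below 0 and the median was -0.19. Their summed level was 67965, 66589 and 59627 CPM in the lower, middle and upper tertile. Of 35 measured members of complexes III to V none was 1.5-fold apart, 33 were below 0, and the median was -0.17, with summed levels of 125513, 122705 and 111307 CPM. Ndufa7, an accessory subunit of complex I, had 1539, 1326 and 1132 CPM, and Cox6b1, of cytochrome c oxidase, had 3522, 3328 and 2741 CPM. The members above 0 included Ndufs1, Ndufa10, Ndufv1 and Ndufv2 of complex I, and Cyc1 and Atp5a1 of the others, several of them core catalytic subunits. The members ranged from a log2 ratio of -0.44 for Ndufa7 to 0.21 for Ndufs1. The 4 subunits of complex II, counted with the TCA cycle, had 0.04 (Sdha), -0.19 (Sdhb), 0.01 (Sdhc) and 0.21 (Sdhd). Ndufs1, the largest subunit with iron-sulphur clusters, had 495, 501 and 575 CPM. Those members are also long: the median exonic length was 2.63 kb for the 5 complex I members above 0 and 1.29 kb for the 31 below. Against genes of the same length decile, the medians came to -0.04 for complex I and -0.04 for complexes III to V at 50 CPM or more. The mitochondrially encoded RNAs went the other way, as the mitochondrial share does: per 1000000 counts of all mouse genes, all 10 measured ones were above 0, with log2 ratios from 0.02 for the ribosomal RNA mt-Rnr1 to 0.13 for mt-Nd3 and mt-Nd2.

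Cytosolic ribosomal protein genes, also short, resembled the respiratory chain. Of 40 members 31 were below 0 and the median was -0.18, with only Rpl13a, at 15.2 CPM in the lower and 7.28 CPM in the upper tertile, past 1.5-fold. Against genes of like length the median was -0.12. Proteasome subunits had a median of -0.04 over 26 genes, the TCA cycle -0.003 over 18, glycolysis and pyruvate entry 0.08 over 24, and fatty acid uptake and oxidation 0.03 over 27.

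Calcium cycling genes were higher in the upper tertile. Of 19 measured members 5 were at least 1.5-fold higher, none was as much lower, 14 were above 0, and the median was 0.38. The share past the limit is near the 22.4% of all genes, so the list differs from them in its median and not in that count. Slc8a1, the sodium-calcium exchanger that extrudes calcium, had 69.6, 90.2 and 113 CPM, and Camk2d, the main calcium/calmodulin kinase of the heart, had 31.3, 38.5 and 63.8 CPM. The calcium store proteins Casq2 and Trdn had 1122, 1358 and 1463 CPM and 410, 462 and 534 CPM. S100a1, a short gene for a calcium-binding protein of cardiomyocytes, was lower, at 3670, 3404 and 3171 CPM. Sln, a brake of the calcium pump that marks atrial cells, was among the 5 at 30.6 and 234 CPM, but 83.0% of its upper tertile counts came from 1 well. At 50 CPM or more, 10 of 13 members lay above the median of their length decile, and their median difference from it was 0.17.

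Ion channels and pumps of the cardiac action potential had a median of 0.33, with 5 of 18 measured members at least 1.5-fold higher, again near the 22.4% of all genes, and 2 as much lower. All 9 members at 50 CPM or more were above their length decile, by a median of 0.32. Kcnk3, a background potassium channel, had 191, 193 and 255 CPM (log2 ratio 0.42, interval 0.37 to 0.47). Kcnj2, Kcnj3, Kcnd2, Kcnd3 and Kcnip2, the 5 that were past 1.5-fold, were sparse. Of them Kcnj3, a subunit of the acetylcholine-gated potassium channel, was the most abundant, at 30.2, 46.7 and 73.9 CPM with 35.6% of the upper tertile counts from 1 well. Kcnq1 and Kcna5 were the 2 lower ones, Kcnq1 at 39.1, 21.3 and 11.7 CPM with 48.8% of the lower tertile counts from 1 well. The summed channel level per well ran from 347 through a median of 1694 to 4633 CPM in the lower tertile and from 397 through 2322 to 6604 CPM in the upper, with the middle tertile at a median of 1608 CPM, below both.

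Sarcomere and Z-disc genes went both ways. Of 25 measured members, Nrap alone was past 1.5-fold, at 133, 180 and 214 CPM, 16 were above 0 and the median was 0.05. The large Ttn, Cmya5, Myom1 and Flnc were higher, Myom1 at 853, 859 and 1083 CPM, and the long Myom2, Tnnt2, Ldb3 and Nebl had log2 ratios of -0.14, -0.05, -0.03 and 0.06. The small Csrp3, Tnni3 and Tcap were lower, Csrp3 at 2180, 2070 and 1699 CPM. Within this list rho of the log2 ratio with exonic length was 0.58 over the 25 genes. The 12 ventricular markers had a median of 0.04. With all mouse genes in the total the sarcomere and ventricular medians were -0.02 and -0.03, so no direction is given for either list.

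The calcineurin axis had a median of 0.24 over 10 genes, which was -0.07 when per-well CPM was averaged instead of counts being summed. Ppp3cb, a catalytic subunit of calcineurin, was past 1.5-fold at 70.9, 99.6 and 120 CPM, and Rcan1, its feedback inhibitor, had 128, 141 and 176 CPM. Fetal and stress genes had a median of 0.02 over 18 genes. The natriuretic peptide gene Nppb had 468, 328 and 393 CPM, the mechanical stress gene Ankrd1 907, 674 and 705 CPM, and the fetal myosin Myh7 422, 378 and 412 CPM, so for all 3 the middle tertile was the lowest.

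Of 4 lists of inducible stress genes, 3 had a median below 0 and 1 above it. Over all genes at 5 CPM or more, 16.1% were at least 1.5-fold lower and 22.4% as much higher. Of 17 measured immediate early and NR4A genes, 7 were at least 1.5-fold lower, 1 was as much higher, and the median was -0.42. At 50 CPM or more the median was -0.14 over 6 genes, and -0.06 against their length deciles. Klf2, Junb, Klf6, Klf4, Dusp1, Jund and Ier2 were the 7: Dusp1, a phosphatase that turns off stress kinases, had 71.2, 62.7 and 45.8 CPM, and Klf2, a factor that endothelium expresses too, 54.2, 42.7 and 22.9 CPM. Fos was not lower, at 80.3, 32.4 and 89.9 CPM. Of 16 NRF2 antioxidant genes 4 were at least 1.5-fold lower, 1 was as much higher and the median was -0.32. Txn1, the thioredoxin that reduces oxidised proteins, had 240, 139 and 129 CPM, Srxn1 82.7, 75.3 and 46.8 CPM and Nqo1 40.5, 51.0 and 24.8 CPM, while Txnrd1, the reductase of thioredoxin, had 84.0, 69.4 and 89.6 CPM. Against their length deciles 7 of 9 NRF2 genes at 50 CPM or more were below, by a median of -0.31 over the 9. Heat shock genes had a median of -0.17 over 20, 2 of which were past the limit downward, a smaller share than the 16.1% of all genes, with the inducible Hspa1b at 58.6, 35.4 and 26.8 CPM and Dnajb1 at 46.1, 25.6 and 25.7 CPM past the limit, and the abundant Hsp90ab1 the other way at 3318, 3467 and 3841 CPM. Unfolded protein and integrated stress response genes had a median of 0.14 over 12, with 2 past the limit upward and 1 downward.

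**Figure D5:**
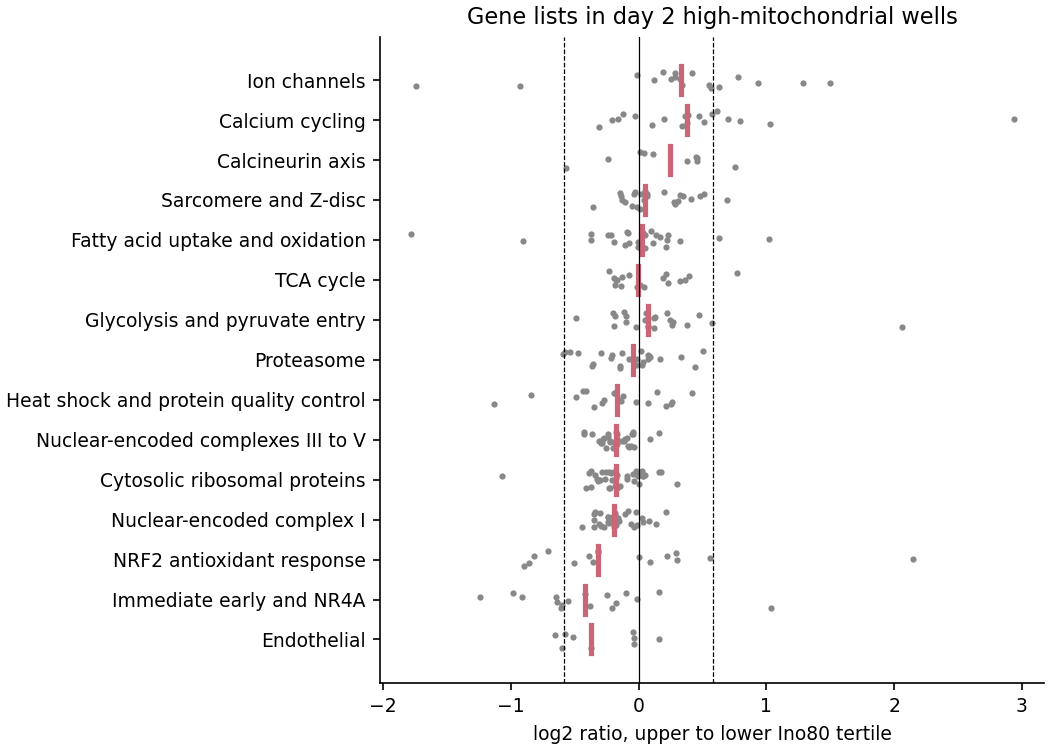
Log2 ratio of upper to lower Ino80 tertile for each measured member (points) of 15 gene lists, with the list median as a bar; dashed lines mark 1.5-fold. Complex I and complexes III to V lie mostly below 0 with medians of -0.19 and -0.17, while ion channels and calcium cycling have medians of 0.33 and 0.38 with a wide spread.

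The other subunits of the INO80 complex were sparse and gave no common direction. Besides Ino80, 10 of the 15 listed genes were measured, with at most 77.7 CPM in a tertile. Actl6a, Nfrkb, Ino80d and Ruvbl1 were past 1.5-fold upward and Ino80b, Mcrs1 and Uchl5 downward. Over all genes at 5 CPM or more, 22.4% were past it upward and 16.1% downward. Uchl5, a deubiquitinase of the complex, had 77.7, 64.9 and 49.7 CPM, and Yy1, its DNA-binding partner, 53.4, 54.9 and 65.6 CPM. For Actl6a 85.4% of the upper tertile counts and for Nfrkb 81.3% of the lower tertile counts came from 1 well. Esr1, whose hormone-binding part is also in MerCreMer, had 436, 371 and 419 CPM. Both added sequences in the count table gave 22 and 287 counts for EGFP, in 10 and 11 wells of the lower and upper tertile with 63.4% of the upper counts from 1 well, and 3 and 2 counts for 3xFlag.

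Markers of other cell types moved with some of these genes. Of 9 measured endothelial markers 8 were below 0, with a median of -0.37 and summed levels of 760, 765 and 618 CPM. The summed level ranged from 0 to 6499 CPM over wells of the lower tertile and from 0 to 3779 CPM over those of the upper, Cldn5 was near 0, and Kdr, the main VEGF receptor, had 74.3, 71.0 and 49.0 CPM. Flt1, another VEGF receptor, was the 1 marker above 0, at 111, 128 and 124 CPM. Their part in the lower values of Ly6a, Ly6c1, Gpihbp1 and Klf2 was not tested. Fibroblast markers, 4 of which the rule used, summed to 442, 390 and 377 CPM, and pericyte and smooth muscle markers to 709, 650 and 603 CPM. Atrial markers summed to 143, 150 and 473 CPM, with 74.0% of upper tertile Myl7 counts from 1 well. Wells with 1000 CPM or more of Sln and Myl7 numbered 2, 3 and 5 in the lower, middle and upper tertile, and those with as much haemoglobin RNA 22, 28 and 20.

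The naming rule for large ratios gave genes of low abundance. The 15 highest were Zxdc, Fhod3, Lclat1, Slc25a32, Imp4, Wdr7, Zhx1, Slc35a4, Suco, Sharpin, Clcn3, Rnps1, Slc35b2, Gripap1 and Flywch1, with 5.87 to 23.0 CPM in the lower and 34.9 to 88.4 CPM in the upper tertile. Fhod3, a formin that assembles sarcomeric actin, had 23.0, 58.2 and 88.4 CPM (log2 ratio 1.94, interval 1.83 to 2.05) and a count in 36.8% and 52.1% of wells. Clcn3, a chloride-proton exchanger of endosomes, had 16.9, 58.9 and 57.3 CPM. Slc25a32, a mitochondrial folate carrier, had 10.4, 6.24 and 43.1 CPM, with the middle tertile the lowest. For Wdr7, Gripap1, Slc35b2 and Rnps1 the share of wells with a count was not larger in the upper tertile, at 34.97% and 32.5% for Wdr7.

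The 15 lowest included Fkbp2, Dnajc4, Irf3, Iqgap1, Exosc1, Borcs7, Cib1, Abhd14a, Slc3a2, Taf7, Dhrs3, Gps2, Snrnp25 and Osbpl2, which had 34.9 to 303 CPM in the lower and 10.2 to 120 CPM in the upper tertile. Dnajc4, a member of the J-domain cochaperones, had 112, 73.8 and 30.4 CPM (log2 ratio -1.88, interval -1.98 to -1.78). Irf3, a transcription factor of the interferon response, had 75.7, 25.7 and 20.9 CPM, and Iqgap1, a scaffold of the actin cortex, 54.3, 24.5 and 14.6 CPM. For Gps2 (24.5% and 26.4%) and Osbpl2 (35.6% in both) the share of wells with a count was not smaller in the upper tertile. Borcs7, of the complex that positions lysosomes, was the only gene of the 15 whose intervals for that share did not overlap. It had a count in 57.1% of lower and 36.8% of upper tertile wells. Thinned to 30000 counts per well, which left out 1 well of each outer tertile, those shares were 36.4% and 20.4%, and for Fhod3 22.2% and 37.7%. The largest rho of these 30 genes with Ino80 in size was -0.22, for Slc3a2. For Wdr7 (-0.04) and Gripap1 (-0.03) among the highest and Gps2 (0.01) among the lowest, its sign was opposite to that of the ratio.

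The same rule in wells that share none with these gave a check of direction for single genes, with no test between libraries. It left 499 wells of day 1 at 40% or more and 353 wells of day 2 under 40%. Their Ino80 splits were wider, with medians of 1427 and 4946 CPM in the outer tertiles on day 1 and of 1395 and 3755 CPM in the day 2 wells under 40%. All 10 genes named by rho had the same sign in both, Ttn with log2 ratios of 1.60 and 0.90 and Usmg5 with -0.51 and -0.37. The 16 higher abundant genes were all above 0 on day 1 and 15 of them in day 2 wells under 40%, where Mrpl45 was at -0.36. All 13 lower ones were below 0 on day 1, Hadh by only -0.01, and 12 in day 2 wells under 40%, where Hadh was at 0.22. Igkc, counted in both, was near the floor there, at 0.79 and 0.25 CPM in the outer tertiles on day 1. In day 2 wells under 40% it had 5.02 and 3.31 CPM. Among all genes at 200 CPM or more in both sets compared, 42.4% were above 0 on day 1 and 44.2% in day 2 wells under 40%. Some of the 16 and 13 genes did not reach 200 CPM in the other set, so these shares are not matched to them. Higher genes that did numbered 12 on day 1 and 6 in day 2 wells under 40%, all above 0. Both counts include Ino80, which the split itself places above 0. Lower genes that did numbered 11 in each, all below 0. Of the 15 sparse genes with the highest ratio 14 were above 0 on day 1 but 9 in day 2 wells under 40%, and of the 15 lowest 10 were below 0 in each. Among all genes at 10 CPM or more in both sets compared, 62.4% were above 0 on day 1 and 61.0% in day 2 wells under 40%, so 9 of 15 is near the share of all genes. Of those 15, Zxdc was under that limit in day 2 wells under 40%, at 2.57 and 8.77 CPM in the outer tertiles.

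List medians in those wells differed in places. The length order was steeper, with rho of 0.55 on day 1 and 0.42 in day 2 wells under 40%. Complex I had -0.42 and -0.18, complexes III to V -0.43 and -0.24, and ion channels 0.93 and 0.65, on the same side as in the 489 wells. Calcium cycling had 0.46 on day 1 and -0.03 in day 2 wells under 40%. The median of NRF2 genes was 0.35 and 0.05, and that of immediate early genes 0.13 and 0.07, both on the other side of 0 from the 489 wells, while all genes at 5 CPM or more had 0.25 and 0.19. These sets differ from the 489 wells in Ino80 range, so the values stand side by side and the difference was not tested. On day 3, 70 of 1092 wells with enough counts and genes reached the 40% limit (6.41%), and 67 wells met the whole rule.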

How the data were processed

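The data are 3 deposited tables of raw read counts per gene and well from the iCELL8 platform, whole numbers with no normalization by the authors. Per the submitters' processing notes, reads were handled with cutadapt, STAR and featureCounts on build mm10; for versions, annotation, strand setting and any use of molecular identifiers, the record is: not given in the sources used here. Of 69 genes named by rule or abundance, 28 have exons that overlap a gene on the opposite strand, among them Ttn, Myh6, Ckm, Usmg5, Cryab, Atp5j, Cox6c and Dsg2, and 1 (Zhx1) a gene on the same strand, so their reads may not be theirs alone.

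Symbols, coordinates and exonic lengths came from GENCODE M21 on mm10, where 55141 of 55401 mouse identifiers were found; 99 spike-ins stayed out of totals. Work was done in Python 3.11.15 with numpy 2.4.6, scipy 1.17.1, pandas 2.3.3 and matplotlib 3.10.9. Wells were chosen, Ino80 ranked and counts summed as the text above says; ratios are of summed CPM with exact binomial intervals, and a count of 0 was set to 3. Ratios and intervals were run on simulated counts drawn from 1 profile per tertile with counting error alone. This checks the calculation only, since the simulation holds no further spread between wells. Doublets were not called; wells were chosen by imaging, per the labels. Genes named by ratio are the 15 highest and 15 lowest with 5 CPM added, among genes with a mean of at least 20 CPM, at least 20% of the higher tertile's wells with a count, at most 25% of its counts from 1 well and the same direction in mean per-well CPM; genes named by rho are the 5 highest and 5 lowest at 50 CPM or more; Gm, Rik, mt- and ribosomal protein symbols and Ino80 were left out. A gene chosen by ratio and a few list members are not named here. The wells, lists and rules were chosen with earlier results of these data known. Alternatives covered totals, centring, tertiles, filters and thinning.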

Additional observations from a re-analysis of the deposited data

Results flagged for a closer look

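For 4 genes named above by ratio, day 1 wells gave a log2 ratio on the other side of 0 from the 489 wells. The day 1 wells had 40% or more mitochondrial counts and the same Ino80 split. Genes are flagged where the intervals of both ratios, which cover counting error only, were clear of 0. Iqgap1, at -1.89 on day 2 and 0.04 on day 1 (interval -0.05 to 0.14), did not meet this. The difference between the libraries was not tested. Suco had 1.78 on day 2 and -0.48 on day 1. Exosc1 had -1.88 and 0.88, Abhd14a -1.59 and 0.78, and Taf7 -1.34 and 0.09.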

How the results depend on the processing

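No paired analysis was possible because each day has 1 library. Against 1343 higher and 885 lower genes, a mean of at least 1 CPM gave 3183 and 2620, at least 50 CPM 238 and 157, at least 200 CPM 17 and 13, a 2-fold limit 539 and 371, and all mouse genes in the total 655 and 602. The share of higher among genes apart was 60.3%, 52.1% with all mouse genes in the total, 51.9% centred on the median gene and 49.8% centred within length deciles, where centring itself brings the balance. List medians were given the same alternatives after the data were seen, as were the 200 CPM limit, length centring and dropping wells of plasma cell, atrial or erythroid genes. With all mouse genes in the total, or centred on the median gene, the medians were -0.0228 and -0.0315 for sarcomere genes, -0.0347 and -0.0434 for ventricular markers, -0.266 and -0.274 for complex I, -0.250 and -0.259 for complexes III to V, and -0.255 and -0.263 for ribosomal proteins. The calcineurin median was -0.0708 for mean per-well CPM and -0.0900 with no macrophage or fibroblast filter. Complex I had -0.136 for a split at the median, -0.241 for outer quartiles of Ino80, -0.131 for tertiles within quartiles of mitochondrial share, -0.138 at 45% or more, -0.144 with no macrophage or fibroblast filter and -0.0598 relative to length; complexes III to V had -0.255 for outer quartiles and -0.0634 relative to length, and ion channels 0.161 for a split at the median. The other 183 of 204 list medians kept their sign and stayed within the order-statistic 95% interval of the members' median. Some of these moved by over 1.5 times: their medians ran from -0.48 to -0.08 for endothelial markers, -0.44 to -0.11 for NRF2 genes, -0.26 to -0.02 for heat shock genes and 0.20 to 0.48 for calcium cycling. For genes named by ratio, the naming rule itself required the same direction in mean per-well CPM, which fixes the sign in that alternative. A limit of 5000 counts and 1000 genes removed no well, so it repeats the reported values for genes and lists. None of the 680 values of the 40 named genes changed sign, 406 moved beyond counting error, and most alternatives reuse the same wells. The cause was not tested.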
